A study of Mus musculus with 24 samples.

Results

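The metabotropic glutamate receptor genes described here are *Grm2*, *Grm3*, *Grm4*, *Grm5*, *Grm7* and *Grm8*, which are 6 of the 15456 genes in the table of normalized counts. They were chosen by symbol alone, each symbol stands on 1 row, and all 6 passed the filter on low values, a mean of at least 10 normalized counts over the mice. Expression was measured by RNA sequencing in the medial prefrontal cortex (mPFC) of 24 BALB/c mice, male and of the BALB/c OlaHsd substrain according to the methods, at postnatal week 11. There were 4 groups of 6 mice with 1 library per mouse. Control mice, labelled as untreated, received PBS in place of both agents according to the methods. The duloxetine group received duloxetine, a serotonin and norepinephrine reuptake inhibitor used as an antidepressant, by daily intraperitoneal injection. The *R. flavefaciens* group received live *Ruminococcus flavefaciens*, an anaerobic gut bacterium, by gavage, and the combined group received both agents. Strain, age and tissue are the same in all groups, and no mutation or transgene is given for any of them. A normalized count is the number of reads on a gene divided by 1 size factor per mouse. The reads recovered from these values ranged from 12811413 to 15607343 per mouse, with group medians of 13591497 in control, 14536037 in duloxetine, 13943370 in *R. flavefaciens* and 14621656 in combined mice. Mice are called here by their label numbers, such as 9_3.

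Metabotropic glutamate receptors are G protein-coupled receptors that tune synapses rather than carry fast current. *Grm5* encodes a group I receptor, mostly postsynaptic, which couples through Gq to phospholipase C and calcium release. *Grm2* and *Grm3* encode group II and *Grm4*, *Grm7* and *Grm8* group III receptors, which couple through Gi/o, lower cyclic AMP and, at presynaptic terminals, reduce transmitter release. *Grm3* is also expressed by astrocytes and responds to the peptide transmitter NAAG, and *Grm7* sits in the presynaptic active zone.

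In brief, *Grm3* was the only receptor gene called by limma in the 8 comparisons, and DESeq2 also called *Grm5* in one of them. It was higher in the combined than in the *R. flavefaciens* group, by 0.33 on the log2 scale, at a limma adjusted p of 0.0493 that many alternatives took past 0.05. *Grm3*, *Grm4* and *Grm7* had their lowest group mean in mice given *R. flavefaciens* alone and *Grm8* in combined mice. The means of *Grm2* and *Grm5* were also lowest with *R. flavefaciens* alone, at 1217.5 and 3656 normalized counts. Combined mice were close to these, at 1220.2 and 3710. In the fit on log2 values *Grm2* was lower in combined mice, at -0.083 against control beside -0.078. None of the 6 genes passed the limma test against control. No receptor gene passed the test for duloxetine against control.

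In the GRCm38 coordinates of the table, which equal those of GENCODE vM21 for 5 of the 6 genes, *Grm2* spans chromosome 9 from 106643095 to 106656082, *Grm3* chromosome 5 from 9485541 to 9725170 and *Grm4* chromosome 17 from 27422387 to 27513341, all on the minus strand. *Grm5* spans chromosome 7 from 87584168 to 88134907 and *Grm7* chromosome 6 from 110645581 to 111567230, both on the plus strand. The exception is *Grm4*, which GENCODE vM21 ends at 27521403. *Grm8* also lies on chromosome 6, from 27275119 to 28135178 on the minus strand. Counts are sums over exons of each whole gene, so isoforms were not separated. Exons of *Grm2*, *Grm7* and *Grm8* overlap those of *Gm28111*, *Gm20387* and *Mir592*, and whether counting used strand is not stated. None of these 3 partners is in the table.

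The promoter windows of *Grm3*, the gene that was called, and of *Grm2*, the other group II receptor, which was not, are printed to set the pair side by side. Both are RefSeq windows of 300 bases around an annotated start in GRCm38.p6, 5′ to 3′ on the minus strand, at chr5:9725303-9725602 for *Grm3* and chr9:106656060-106656359 for *Grm2*. Capitals mark the GC box GGGCGG, searched on both strands.
Grm3: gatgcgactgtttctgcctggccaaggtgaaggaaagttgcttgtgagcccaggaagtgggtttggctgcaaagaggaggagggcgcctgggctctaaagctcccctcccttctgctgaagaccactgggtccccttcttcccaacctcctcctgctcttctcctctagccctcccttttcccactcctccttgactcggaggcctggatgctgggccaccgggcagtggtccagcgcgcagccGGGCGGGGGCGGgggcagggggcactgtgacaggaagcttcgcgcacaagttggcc
Grm2: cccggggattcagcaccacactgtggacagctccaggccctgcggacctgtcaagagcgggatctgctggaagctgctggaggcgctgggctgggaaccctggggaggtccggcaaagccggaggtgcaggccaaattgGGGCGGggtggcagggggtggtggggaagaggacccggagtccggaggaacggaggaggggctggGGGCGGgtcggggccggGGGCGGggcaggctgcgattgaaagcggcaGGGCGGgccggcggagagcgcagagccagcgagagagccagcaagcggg
The *Grm3* window holds 2 GC boxes, 11 CpG dinucleotides and 63.7% G and C, and the *Grm2* window 4 GC boxes, 22 CpG dinucleotides and 72% G and C. Of 32851 windows of this length 35.7% hold the GC box, the median share of G and C is 52.7% and the median number of CpG is 7. The GENCODE model of *Grm3* starts at 9725170, outside the RefSeq window. RefSeq windows were matched for 4 of the 6 genes, *Grm2*, *Grm3*, *Grm7* and *Grm8*. No measurement here bears on the activity of these windows, and the matches are a description of letters only.

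Before the results, libraries that stood apart must be named, 3 of which are left out together below. Mouse 9_3, given *R. flavefaciens*, had the lowest median Spearman correlation with the other mice, 0.988. Its deviations from the gene means were lower for longer transcripts, with a Spearman correlation of -0.503 across genes, which are not independent replicates. Mouse 8_4, also given *R. flavefaciens*, had a summed striatal marker level of 4854 normalized counts and a choroid plexus sum of 791, and combined mouse 11_4 had a striatal sum of 3198. Beyond these 3, *R. flavefaciens* mouse 7_2 had a correlation of deviation with length of -0.299, the second lowest, where control mice had 0.077 to 0.225. Combined mouse 12_2 had the second lowest median correlation with the other mice, 0.991. These 2 were kept, and each mouse was also left out singly. In the control group the striatal sums lay between 1883 and 2247 and the choroid plexus sums between 39.2 and 64.2. The most abundant striatal marker was *Pde10a* and the least abundant *Drd2*, at 237 normalized counts in 8_4 and 132 in 11_4, and *Ttr*, the choroid plexus marker that encodes transthyretin, was at 657 in 8_4. *Folr1* and *Kcnj13*, also choroid plexus markers, are not in the table. Apart from some single genes and spreads, results below are given with and without these 3 mice where they rest on them, an alternative chosen after seeing the data.

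The labelled tissue was checked with 10 marker lists. All 6 markers of cortical excitatory neurons were present, led by *Camk2a*, and their sum lay between 77706 and 93098 normalized counts in the 24 mice. The 3 lowest sums were those of 8_4 at 77706, 9_3 at 79050 and 11_4 at 80575, the libraries named above. In *R. flavefaciens* against control 5 of the 6 excitatory markers were lower, 4 after quantile normalization or rescaling to the 75th percentile, and 3 without these 3 libraries. All 6 microglial markers were higher in that comparison, also without the 3 libraries. All 6 oligodendrocyte markers were higher with these libraries and lower without them. In duloxetine and in combined mice against control, all 6 markers each of microglia, astrocytes and oligodendrocytes were higher. Without the 3 libraries, all 6 oligodendrocyte markers were lower in combined mice. There 5 of the 6 astrocyte markers and all 6 microglial markers were still higher. Of the 6 excitatory markers 2 were lower in duloxetine and 4 in combined mice. None of the 53 markers tested passed the limma test in any of the 8 comparisons, and the smallest adjusted p among them was 0.0727, in *R. flavefaciens* against control. Astrocyte markers summed to 18803 ± 1158 normalized counts in control, 19547 ± 2010 in duloxetine, 20728 ± 1748 in *R. flavefaciens* and 21315 ± 3194 in combined mice (SD, n = 6 each), with *Aldoc* as the most abundant. The mean sum was above control in all 3 treated groups. In *R. flavefaciens* against control the median log2 fold change of the 6 astrocyte markers was 0.14 with 5 higher, and 0.051 with 4 higher without the 3 libraries. Inhibitory neuron markers, led by *Gad1*, summed to 10051 ± 464 in control, 10003 ± 356 in duloxetine, 10927 ± 388 in *R. flavefaciens* and 10460 ± 651 in combined mice. Oligodendrocyte marker sums ranged from 13868 to 37718 in control and from 14995 to 45134 in duloxetine mice. They ranged from 12095 to 45393 in *R. flavefaciens* and from 11505 to 51301 in combined mice. The part of cell composition in the receptor values was not tested, and in bulk tissue fewer cells of a type and less RNA per cell cannot be told apart.

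Per kb of exon, the receptor genes differed widely in level. *Grm3* and *Grm5* were at the top, with levels of 405 ± 50.3 and 381 ± 39.3 normalized counts per kb, and *Grm2* followed with 253 ± 32.2 (SD over 24 mice). *Grm7* had a level of 123 ± 13.7 per kb, *Grm4* of 55.8 ± 6.85 and *Grm8* of 50.1 ± 6.77. *Grm3* was above *Grm5* in 14 of the 24 mice and *Grm4* above *Grm8* in 18, so the order inside these pairs did not hold beyond the spread. *Grm5* was above *Grm2*, *Grm2* above *Grm7* and *Grm7* above *Grm4* in all 24 mice. With the longest transcript as the length, *Grm5* came first at 485 per kb before *Grm3* at 405, and *Grm8* at 103 came before *Grm4* at 72.4. The other ranks were the same. In normalized counts, not divided by length, *Grm5* stood at the 95.4th percentile of the mean log2 levels of all genes tested, *Grm3* and *Grm2* both at the 82.2nd, and *Grm4*, the lowest of the receptor genes, at the 53.5th.

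**Figure D1:**
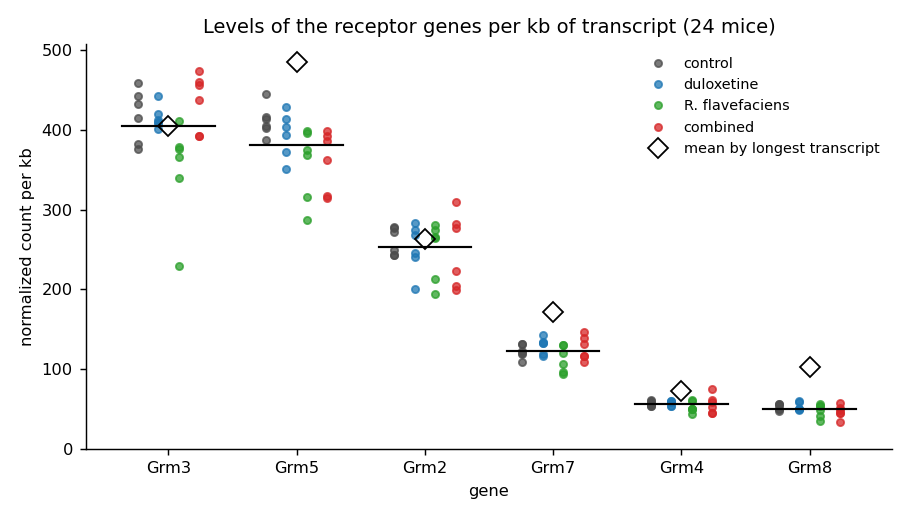
Levels of the 6 receptor genes in normalized counts per kb of exon, 1 point per mouse colored by group, with the mean over 24 mice as a line and the mean by longest transcript as an open diamond. *Grm3* and *Grm5* share the top tier, *Grm2* and *Grm7* follow, and *Grm4* and *Grm8* overlap at the bottom.

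*Grm5*, the group I receptor gene, was lower on average in both groups given the bacterium. In control mice it ranged from 3969.5 to 4556 normalized counts with a median of 4198, and in duloxetine mice from 3594 to 4399 with a median of 4086. In *R. flavefaciens* mice the lowest value was 2946, the median 3809 and the highest 4084, and in combined mice they were 3230.1, 3832 and 4089. All 6 mice of each bacterium group lay below the control mean of 4219 ± 196, and 4 of each lay below every control mouse, but the groups overlapped. Compared to controls, the log2 fold change was -0.22 in *R. flavefaciens* mice (SE 0.074, limma adjusted p = 0.118) and -0.19 in combined mice (SE 0.074, limma adjusted p = 0.209). Neither passed the test. These 2 comparisons share the control mice. The exons of *Grm5* are longer than those of 90.8% of the genes with a length, and the log2 fold changes of *R. flavefaciens* against control were lower for longer genes (Spearman correlation -0.436, 14958 genes). With the length trend taken off each mouse the *Grm5* difference was -0.12 (limma adjusted p = 0.423), and without the 3 libraries named above it was -0.10 (limma adjusted p = 0.664). In combined mice against control the same alternatives gave -0.17 (limma adjusted p = 0.166) and -0.21 (limma adjusted p = 0.0666), and quantile normalization gave -0.13 (limma adjusted p = 0.346).

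*Grm2*, a presynaptic group II autoreceptor gene, passed no test. Its lowest, median and highest values were 1190.4, 1277 and 1364 normalized counts in control, 979.7, 1259.8 and 1388 in duloxetine, 952, 1296 and 1375 in *R. flavefaciens* and 975, 1224 and 1517 in combined mice. The 3 treated groups spread to both sides of the control values. The log2 fold change against control was -0.083 in combined mice, with a 95% confidence interval from -0.30 to 0.13 (limma adjusted p = 0.716). It ran from -0.15 without mouse 12_4 to -0.022 without mouse 11_4. *Grm2* and *Grm3* had nearly the same mean normalized count over the 24 mice, 1237 and 1234.5, which their unequal lengths turn into the difference per kb given above.

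*Grm3*, the group II receptor gene that astrocytes also express, carried the one call by limma. Its lowest, median and highest values were 1148, 1291 and 1399.7 normalized counts in control and 1223.5, 1255.5 and 1349.9 in duloxetine mice, whose values all lay within the control range. In *R. flavefaciens* mice they were 701, 1131 and 1252, and in combined mice 1195, 1363 and 1445. All 6 *R. flavefaciens* mice lay below the control mean and 4 of them below every control mouse, whereas all 6 combined mice lay above the *R. flavefaciens* mean and 4 of them above every *R. flavefaciens* mouse. The groups overlapped in each of these comparisons. Mouse 9_3 was the lowest of all 24 at 701, and the gap to its nearest neighbor took up 0.609 of the range of its group, under the value of 0.625 that would set it apart as an outlier.

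The combined group exceeded the *R. flavefaciens* group in *Grm3* by 0.33 on the log2 scale (SE 0.091, 95% confidence interval 0.15 to 0.52, limma adjusted p = 0.0493), which is 26.0% on the linear scale. This was 1 of the 6 receptor genes called by limma. Of all 14974 genes tested 2.23% were called in this comparison, 1.07% as higher, so the call is 1 among 334, and 2 receptor genes, *Grm3* and *Grm7*, had an unadjusted p under 0.05 beside 19.7% of all genes. The call did not hold under every alternative. It was lost when only the 2 groups compared were fitted (limma adjusted p = 0.211) and when the length trend was taken off (limma adjusted p = 0.0620), with the log2 fold change at 0.33 in both, and it held with DESeq2 (adjusted p = 0.0204, where DESeq2 called 4.52% of the genes it gave an adjusted p) and edgeR (adjusted p = 0.0494). Without mouse 9_3 the difference was 0.22 (limma adjusted p = 0.0597), and without the 3 libraries that stood apart 0.21 (limma adjusted p = 0.0584). Leaving out each of the 24 mice in turn kept the call in 4 fits, with log2 fold changes from 0.22 to 0.38 and limma adjusted p-values from 0.0419 to 0.118.

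**Figure D2:**
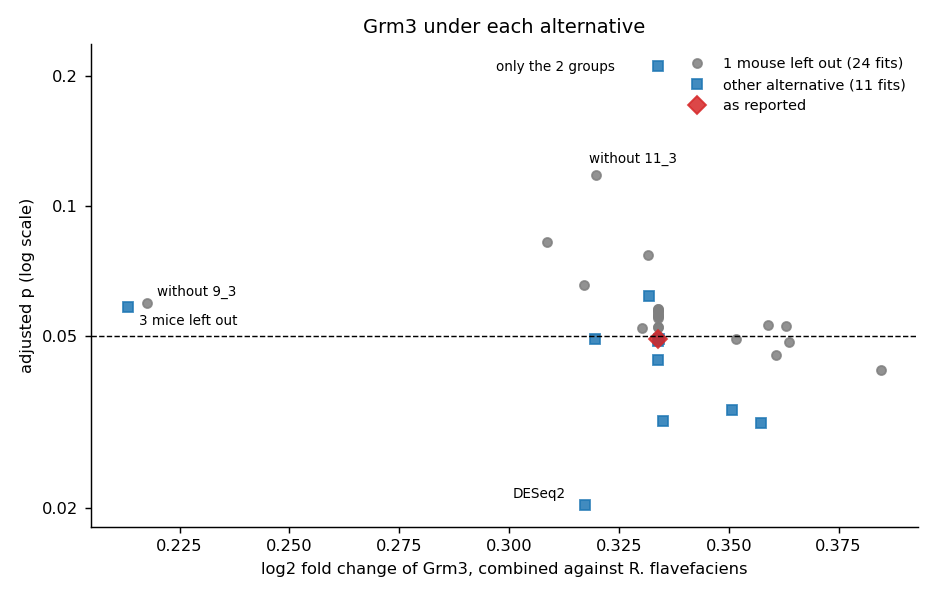
Log2 fold change of *Grm3* in combined against *R. flavefaciens* mice (x axis) and its adjusted p (y axis, log scale) as reported, under 11 other alternatives and with each of the 24 mice left out. The dashed line marks 0.05. All points are above 0.2 on the x axis, and the points lie on both sides of the line.

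Against control, *Grm3* was lower in *R. flavefaciens* mice by a log2 fold change of -0.28 (SE 0.091, limma adjusted p = 0.108), which did not pass the test. Without mouse 9_3 it was -0.16 (limma adjusted p = 0.289), and without the 3 libraries -0.12 (limma adjusted p = 0.529). In combined mice it was 0.059, with a 95% confidence interval from -0.13 to 0.24 (limma adjusted p = 0.771). With each mouse left out in turn this value ran from 0.030 without mouse 3_1 to 0.089 without mouse 11_4. Averaged over both levels of the bacterium, duloxetine went with a *Grm3* difference of 0.16 (SE 0.064, limma adjusted p = 0.216), or 0.11 without mouse 9_3 and 0.10 without the 3 libraries. The test of the interaction, whether the difference made by both agents departs from the sum of each alone, gave 0.34 for *Grm3* (SE 0.13, limma adjusted p = 0.639), or 0.22 without mouse 9_3 and 0.22 without the 3 libraries, so a difference between the effects of duloxetine with and without the bacterium was not shown.

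The group III genes, *Grm4*, *Grm7* and *Grm8*, passed no test. The lowest, median and highest normalized counts of *Grm7* were 643, 714 and 777 in control, 688, 785 and 843 in duloxetine, 553, 667 and 767 in *R. flavefaciens* and 642, 732 and 864 in combined mice. Those of *Grm8* were 472, 520.3 and 556 in control, 477, 496 and 596 in duloxetine, 339.6, 510.4 and 554 in *R. flavefaciens* and 336, 462 and 569 in combined mice. All groups overlapped for both genes, and the lowest mice were 9_3 for *Grm7* and 12_2 and 8_4 for *Grm8*. *Grm7* had a log2 fold change of 0.17 in combined against *R. flavefaciens* mice (SE 0.083, limma adjusted p = 0.250) and of 0.13 for duloxetine averaged over the bacterium (SE 0.059, limma adjusted p = 0.293). *Grm8* had -0.18 in combined mice compared to controls (SE 0.11, limma adjusted p = 0.398), or -0.092 without mouse 12_2. For the bacterium averaged over duloxetine it had -0.16 (SE 0.077, limma adjusted p = 0.257), or -0.089 without the 3 libraries that stood apart. The *Grm7* differences were 0.078 and 0.082 without these 3. *Grm4* ranged from 318 to 368 in control, 321 to 361 in duloxetine, 262 to 369 in *R. flavefaciens* and 265 to 450.5 in combined mice. Its largest difference from control was -0.11 on the log2 scale, in *R. flavefaciens* mice, with limma adjusted p-values of 0.549 or more, and it was -0.062 without mouse 9_3.

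**Figure D3:**
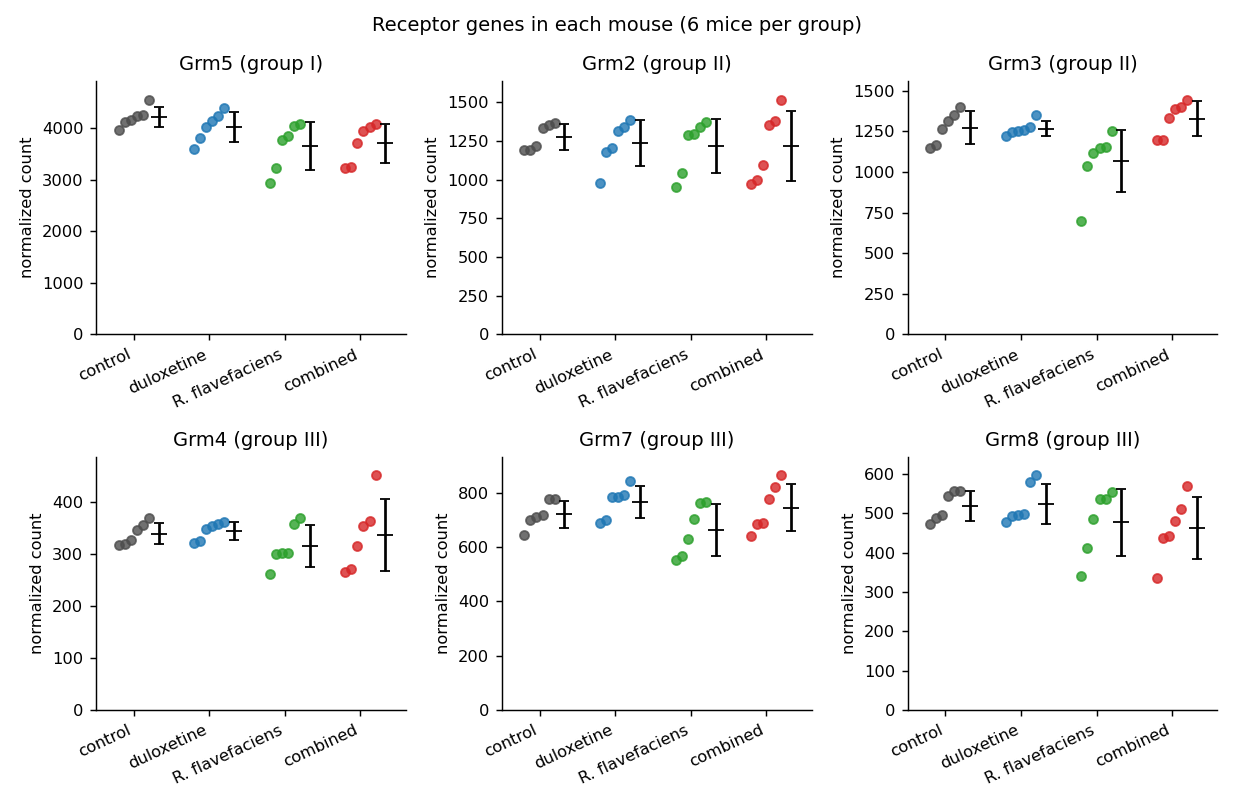
Normalized counts of the 6 receptor genes in each of the 24 mice by group, sorted within a group for display, with the mean and SD (n = 6) beside the points and the y axis starting at 0. The lowest *Grm3* point is *R. flavefaciens* mouse 9_3 at 701, and in every panel the groups overlap.

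By comparison, duloxetine alone left no receptor gene called. In duloxetine against control 0 of 6 were called by limma, DESeq2 and edgeR, 0 had an unadjusted p under 0.05, and the background was 0% of 14974 genes called by limma, 0.00668% by DESeq2 and 3.83% with an unadjusted p under 0.05. The log2 fold changes lay between -0.066 for *Grm5* and 0.086 for *Grm7*, and the widest 95% confidence interval was that of *Grm8*, from -0.21 to 0.23. With 1 mouse left out *Grm5* ran from -0.092 to -0.033 and *Grm7* from 0.053 to 0.115. Combined against duloxetine mice gave 0 of 6 called by limma, DESeq2 and edgeR, 0 with an unadjusted p under 0.05 and a background of 0% of genes called by limma, 0.00668% by DESeq2 and 5.9% with an unadjusted p under 0.05, and the smallest limma adjusted p was 0.818, for *Grm8* at -0.19, or -0.10 without mouse 12_2. In this second comparison the 95% confidence interval of *Grm8* ran from -0.41 to 0.034. A p that misses the threshold does not show that the groups are alike. The intervals are per gene and not adjusted over genes or comparisons.

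In *R. flavefaciens* against control, all 6 receptor genes were lower in the fit and under each rescaling, and 5 of 6 without the 3 libraries that stood apart. Their median log2 fold change was -0.13, beside 0.003 over all genes tested, and without the 3 libraries it was -0.058. By limma, DESeq2 and edgeR 0 of 6 were called, where 0.0267% of all genes were called by limma and 4.86% of those with an adjusted p by DESeq2, and 2 had an unadjusted p under 0.05, *Grm3* and *Grm5*, where 19.6% of all genes did. The differences of *Grm2*, *Grm4*, *Grm7* and *Grm8* ran from -0.078 to -0.14, with limma adjusted p-values from 0.407 to 0.727. Without the 3 libraries they were -0.018 for *Grm2*, -0.11 for *Grm4*, -0.011 for *Grm7* and 0.025 for *Grm8*, the gene at -0.14 with them. Without mouse 8_4 alone *Grm2* was at -0.010 and *Grm8* at -0.046. In combined against control 0 of 6 were called by limma, DESeq2 and edgeR and 1, *Grm5*, had an unadjusted p under 0.05. Of all genes 0.1% were called by limma and 16.8% had an unadjusted p under 0.05, and DESeq2 called 1.68% of those with an adjusted p. Of the 6 receptor genes 4 were lower and 2 higher.

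Averaged over duloxetine, the bacterium again went with a lower fitted value of all 6 receptor genes, and of 5 without the 3 libraries. By limma 0 of 6 were called, beside 0.0267% of all genes, and by edgeR 0. DESeq2 called *Grm5* at -0.16 (adjusted p = 0.0456), for which limma gave -0.17 (SE 0.052, adjusted p = 0.115). This was 1 of the 5 receptor genes that DESeq2 gave an adjusted p, all but *Grm4*, beside 6.73% of the 6555 genes with one. In this comparison 2 genes, *Grm5* and *Grm8*, had an unadjusted p under 0.05, as did 18.1% of all genes. For duloxetine averaged over the bacterium 0 of 6 were called by limma, DESeq2 and edgeR, beside 1.03% of all genes by limma and 2.28% of those with an adjusted p by DESeq2, and 2, *Grm3* and *Grm7*, had an unadjusted p under 0.05 beside 14.9% of all genes. The interaction gave 0 of 6 by limma, DESeq2 and edgeR, with 0% of all genes called by limma and by DESeq2, and 1, *Grm3*, with an unadjusted p under 0.05 beside 7.53% of all genes. In none of the 5 comparisons of single groups did the values of any receptor gene separate fully. The share of all genes whose groups did not overlap was 0.334% in duloxetine, 1.62% in *R. flavefaciens* and 2.04% in combined mice against control, 0.254% in combined against duloxetine and 1.44% in combined against *R. flavefaciens* mice.

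**Figure D4:**
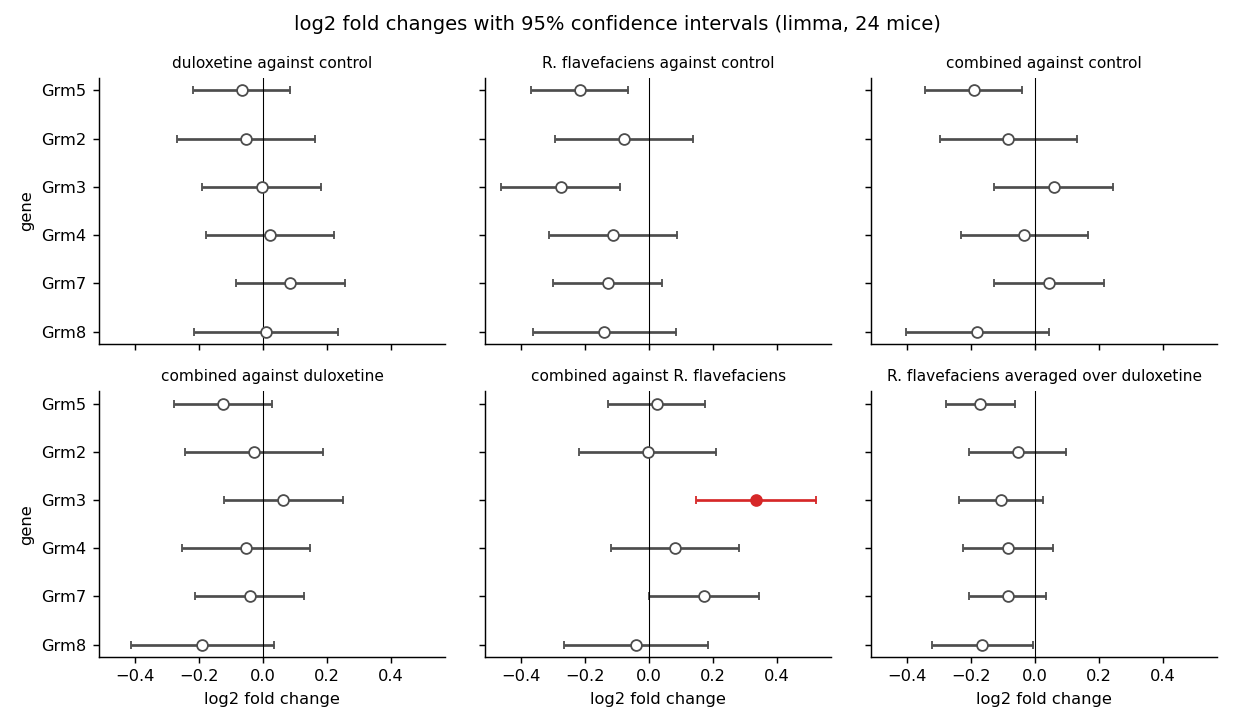
Log2 fold changes of the 6 receptor genes with 95% confidence intervals from limma in 6 comparisons; a filled red point marks an adjusted p under 0.05. *Grm3* at 0.33 in combined against *R. flavefaciens* mice is the one filled point.

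The spread within groups also differed between the groups. The coefficient of variation of *Grm5* was 4.63% in control, 7.25% in duloxetine, 12.7% in *R. flavefaciens* and 10.4% in combined mice. That of *Grm3* was 7.92%, 3.48%, 18.0% and 8.14% in the same order. The 18.0% includes mouse 9_3 at 701 normalized counts, where the other *R. flavefaciens* mice had 1037 to 1252. All 6 receptor genes varied more in both bacterium groups than in control, as did 75.1% of all genes tested in *R. flavefaciens* and 68.2% in combined mice. Without the 3 libraries the count was 3 of 6 in *R. flavefaciens* mice, beside 60.4% of all genes, and 5 of 6 in combined mice, beside 67.6%. No test was made of these spreads.

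Within groups, the receptor genes varied together to different degrees. After group means were taken off, the Pearson correlation over the 24 mice was 0.83 between *Grm5* and *Grm7*, 0.75 between *Grm5* and *Grm8*, 0.70 between *Grm2* and *Grm7* and 0.67 between *Grm7* and *Grm8*. Between the group II genes *Grm2* and *Grm3* it was 0.081, and 0.26 without mouse 9_3. The correlation of *Grm3* with *Grm5* was 0.46 and became 0.14 without mouse 9_3. These are descriptions, since both values of each point come from the same library. Among the genes whose pattern was most like that of each receptor gene by the same measure were *Lonrf2* (0.95), *Nexmif* (0.94) and *Robo1* (0.94) for *Grm5*, and *Olfm2* (0.92) and *Ppme1* (0.91) for *Grm2*. For *Grm3* they included *Zfp955b* (0.89) and *Arhgap5* (0.87), for which the values were 0.74 and 0.67 without mouse 9_3. For *Grm7* they were *Dlg3* (0.93), *Cacna2d1* (0.93) and *Rab3c* (0.93), and for *Grm8* *Ncoa7* (0.91), *Pak3* (0.90) and *Xpo7* (0.90). *Grm4*, the gene with the lowest count, had weaker best matches, *Boc* (0.69), *Rasd2* (0.65) and *Pex11g* (0.65).

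The genes through which these receptors act were read from 8 lists of 63 genes, all of which were tested. In combined against *R. flavefaciens* mice 1 of 63 was called, beside 2.23% of all genes. This was *Kcnj9*, of the Gi/o list, which encodes a subunit of the potassium channels that Gi/o-coupled receptors open. Its lowest, median and highest values were 2379, 2525 and 2802 normalized counts in *R. flavefaciens* and 2179, 2215 and 2410.1 in combined mice. Of the combined mice 5 of 6 lay below every *R. flavefaciens* mouse, and 1 overlapped. The log2 fold change was -0.17 (SE 0.043, limma adjusted p = 0.0415), opposite in sign to that of *Grm3* in the same comparison. The call was lost when only the 2 groups were fitted (limma adjusted p = 0.193) and held in 15 of the 24 fits that left out 1 mouse, and the log2 fold change lay between -0.19 and -0.14 in all these fits and the other alternatives.

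In the comparisons with control and in the averaged effect of the bacterium, 0 of the 63 genes were called by limma, beside the background shares given above. *Slc17a6*, which encodes the vesicular glutamate transporter VGLUT2 and is also on the thalamic marker list, had a lower mean in all 3 treated groups. Of the 5 thalamic markers 3 were higher in each treated group against control. It ranged from 139 to 171 normalized counts in control, 105 to 147 in duloxetine, 85.4 to 149 in *R. flavefaciens* and 86.2 to 141 in combined mice. All 18 treated mice lay below the control mean, though each group overlapped the controls. The log2 fold changes were -0.37 (SE 0.13, limma adjusted p = 0.9996), -0.51 (SE 0.13, limma adjusted p = 0.0727) and -0.42 (SE 0.13, limma adjusted p = 0.134) in the same order, and these comparisons share the control mice. In *R. flavefaciens* against control the difference passed with DESeq2 (adjusted p = 0.0248) and with the block of the first label number (limma adjusted p = 0.0467). It passed in no other of the 11 alternatives and in 2 of the 24 fits that left out 1 mouse, and without the 3 libraries it was -0.40 (limma adjusted p = 0.433).

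*Frmpd4*, which encodes a scaffold protein of excitatory synapses, ranged from 1722 to 1824 normalized counts in control and from 1089 to 1765.5 in *R. flavefaciens* mice, of which 5 of 6 lay below every control mouse. The log2 fold change was -0.29 (SE 0.085, limma adjusted p = 0.0829), and under the 11 other alternatives it ran from -0.29 to -0.14. The difference passed with DESeq2 (adjusted p = 0.0423) and in 2 of the 24 limma fits that left out 1 mouse (adjusted p = 0.0441 without 8_3 and 0.0342 without 9_2), and it was smallest without the 3 libraries that stood apart (limma adjusted p = 0.529). Averaged over duloxetine it passed with DESeq2 as well (adjusted p = 0.0424). *Arc*, an immediate early gene that acts in receptor-dependent synaptic depression, varied widely in control mice, from 2180.4 to 8870.1, and had -0.62 in duloxetine mice (SE 0.29, limma adjusted p = 0.9996), or -0.38 without control mouse 2_3. *Eef2k*, which encodes a kinase that slows translation, was at 435 ± 14.6 in control and 491 ± 42.1 in combined mice (SD, n = 6 each), a log2 fold change of 0.17 (SE 0.057, limma adjusted p = 0.154). *Gnaq*, the Gq alpha subunit gene through which *Grm5* signals, had -0.10 for the bacterium averaged over duloxetine (SE 0.034, limma adjusted p = 0.130), or -0.053 after quantile normalization and -0.055 without the 3 libraries (limma adjusted p = 0.509).

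In *R. flavefaciens* against control 8 of the 9 genes of the Gq list were lower, with a median log2 fold change of -0.14 beside 0.003 over all genes. Without the 3 libraries 7 of 9 were lower, with a median of -0.053. Its most abundant gene, *Itpr1*, the inositol trisphosphate receptor gene, had -0.22 (SE 0.081, limma adjusted p = 0.148), *Plcb4* had -0.25 (SE 0.081, limma adjusted p = 0.103), and the exception was *Gna11* at 0.072. *Itpr1* ranged from 16354 to 18540 normalized counts in control and from 10885 to 18172 in *R. flavefaciens* mice. In duloxetine against control 6 of 9 were lower, and 4 after quantile normalization or rescaling to the 75th percentile. In combined against control all 9 were lower in the fit, but 6 after quantile normalization and 7 after rescaling to the 75th percentile. Of the 12 Gi/o genes 9 were lower in *R. flavefaciens* and 10 in combined mice against control, and *Gnao1*, a main Gi/o alpha subunit gene of brain, had -0.074 in the former. Without the 3 libraries the Gi/o counts were 7 and 11. Of the 12 scaffold genes 8 were lower in *R. flavefaciens* and 5 in combined mice, and 5 and 7 without the 3 libraries, where the median of the first turned from -0.078 to 0.013. Of the 10 genes for desensitization 7 and 5 were lower, and 4 and 6 without the 3 libraries, where the median of the first turned from -0.020 to 0.021, and after quantile normalization 5 and 5. Of the 4 G beta-gamma genes 2 and 4 were lower, but 1 and 1 after quantile normalization, where the median in combined mice turned from -0.031 to 0.023. Of the 8 genes for glutamate supply and removal 5 and 4 were lower. Without the 3 libraries 4 and 4 were, and the median of the first went from -0.096 to -0.016. Over the 11 other alternatives the median of the first ran from -0.097 to 0.0025, with 3 to 5 genes lower. Of the 4 genes for synaptic depression 1 and 3 were lower, or 0 and 2 without the 3 libraries. Of the 4 for NAAG, the peptide that acts on the *Grm3* receptor, 2 and 1 were, or 2 and 2 without them. In duloxetine against control, 9 of the 12 Gi/o, 9 of the 12 scaffold and 8 of the 10 desensitization genes were lower. After rescaling to the 75th percentile these counts were 7, 8 and 5. Of the 4 G beta-gamma genes 3 were lower with duloxetine, but 0 after quantile normalization. Of the lists for synaptic depression, supply and removal and NAAG, 3, 3 and 0 genes were lower.

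**Figure D5:**
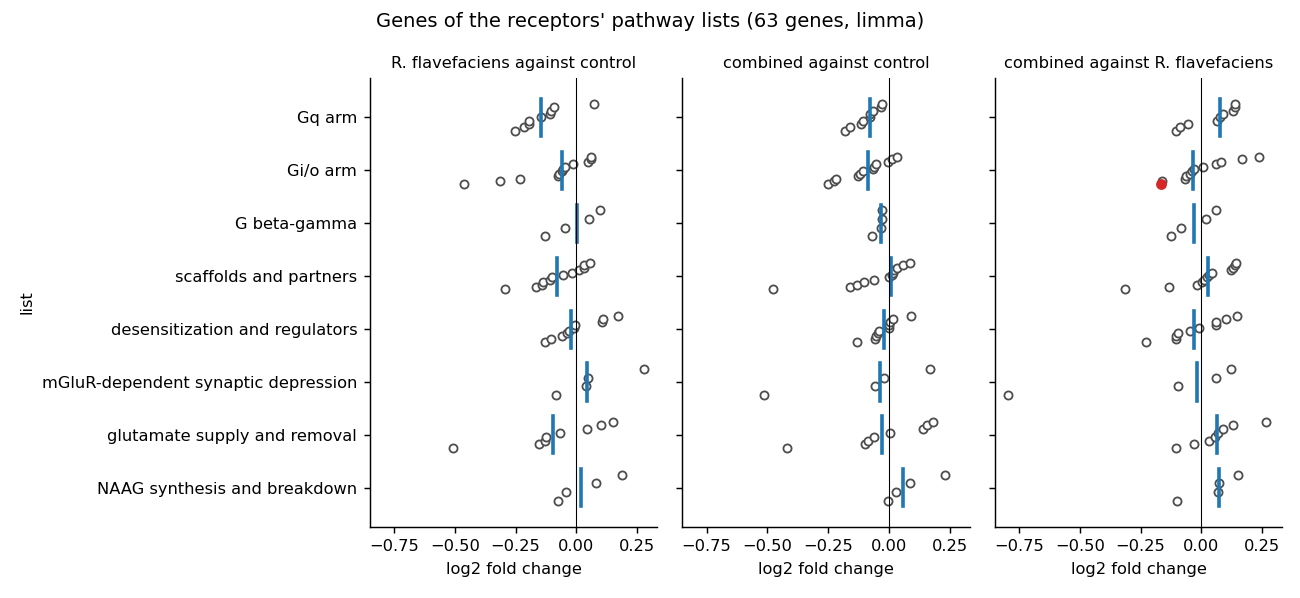
Log2 fold changes of the 63 genes of the 8 pathway lists in 3 comparisons, 1 point per gene, with the list median as a blue bar; the filled red point is *Kcnj9*, the one gene with an adjusted p under 0.05. In *R. flavefaciens* against control 8 of the 9 Gq genes lie left of 0.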

How the data were processed

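Normalized counts in the mPFC of 24 mice, 6 per group, were used as deposited. According to the methods, the authors enriched poly(A) RNA, sequenced it on an Illumina instrument and mapped the reads with TopHat2 to GRCm38.p5. The submitters' processing notes name TopHat2 2.1.0, Bowtie2 2.2.6, DESeq2 1.18.1 and mm9, but the positions of 14285 of 15438 gene IDs equal those of GENCODE vM21 on GRCm38. The counting program, its strand setting and the filter that left 15456 genes are not given in the sources used here. The deposited signal values are read counts that the authors divided by 1 size factor per mouse with DESeq2. In each mouse at least 99.97% of the values were whole multiples of 1 step, within a tolerance of 0.0051, and division by the step gave the recovered reads. All 24 columns were mapped to mice by their names, and the table holds no comparisons of the authors. Within groups, no library looked like a second deposit of another, since the difference in each of the 60 pairs exceeded sampling noise (chi-square of 2.11 to 26.8 per degree of freedom). Scaling to an equal total in every library, of which the methods also speak, is not seen in the column sums.

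Log2(normalized count + 1) was fitted with limma 3.58.1 (trended prior) in R 4.3.3 for 14974 genes (mean of 10 or more), with all 4 groups in 1 fit and 8 comparisons. A fold change on this scale understates the change of low genes. Tests were two-sided with Benjamini-Hochberg adjustment over all genes tested within a comparison and a threshold of 0.05. A gene past it is called. Lengths are exon unions from GENCODE vM21. Among the alternatives, the pseudocount was lowered to 0.1, the filter was dropped or raised to a mean of 50, the fit was limited to the groups a comparison is about, and values were quantile normalized, rescaled by their 75th percentile or freed of a loess fit on exon length (span 0.3). DESeq2 1.42.0 and edgeR 4.0.16 were run on recovered reads, the first label number was entered as a random block, and each mouse was left out. Leaving out 3 mice together, and running the alternatives for the pathway genes, were added after the data were seen.

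The receptor genes, the 8 pathway lists, the 10 marker lists and the tests were chosen with earlier results of these data known. The rule for named genes takes all 6 receptor genes, each pathway gene called and otherwise the 2 with the smallest p in each treated group against control and in the averaged effect of the bacterium, the most abundant genes of lists, and the 3 genes most like each receptor gene, of which some are not reported here. *Plcb4*, *Gna11* and *Gnao1* lie outside this rule and were chosen after their values were seen. Of the 63 pathway genes 3 are also markers. The fit was checked on simulated data with an equal spread in all groups. That check does not cover the unequal spreads between the groups of mice. Python 3.11.15, pandas 2.3.3 and matplotlib 3.10.9 were used for descriptions and figures.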

Additional observations from a re-analysis of the deposited data

How the results depend on the processing

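The 6 receptor genes in 8 comparisons gave 48 log2 fold changes, which were recomputed by up to 11 other alternatives and by leaving out each of 24 mice, the fit of only the groups compared being made in 5 of the 8 comparisons. Of the 1661 values with an adjusted p, 1637 stayed on their side of the threshold, 23 lost the call and 1 gained it. No called value changed sign, and the 58 sign changes among values not called were in 20 results, none with a reported log2 fold change beyond 0.14 in size. The number of receptor genes called in combined against *R. flavefaciens* mice, 1 as reported, was 0 when only the groups compared were fitted, 0 with the length trend taken off, 0 with the 3 mice left out together, and from 0 to 1 when each mouse was left out in turn. For the bacterium averaged over duloxetine it was 1 with DESeq2 in place of 0, and it was 0 in the other comparisons under every alternative run. Over all genes, the number called in *R. flavefaciens* against control was 4 as reported, 488 with DESeq2, 221 with the block, 1 with the length trend taken off, 0 with only the groups compared or without the 3 mice, and 0 to 616 with 1 mouse left out. In combined against control it was 15, and 30 with a minimum mean of 50, 196 with only the groups compared, 23 with rescaling, 65 with the length trend taken off, 217 with DESeq2, 59 with the block, 126 without the 3 mice and 5 to 154 with 1 mouse left out. In combined against *R. flavefaciens* it was 334, and 0 with only the groups compared, 624 with DESeq2, 533 with the block and 47 to 577 with 1 mouse left out. For the bacterium averaged over duloxetine it was 4, and 441 with DESeq2, 2 with quantile normalization, 7 with the length trend taken off and 1 to 135 with 1 mouse left out. For duloxetine averaged over the bacterium it was 154, and 321 with DESeq2, 248 with the length trend taken off, 255 with the block, 306 without the 3 mice and 46 to 260 with 1 mouse left out. The cause of these shifts was not tested. In duloxetine against control and in combined against duloxetine it was 0, and 1 with DESeq2 in each, and 0 to 2 in the latter with 1 mouse left out. What the first label number marks is not stated, and the correlation estimated for it as a block was -0.0451. No paired analysis was possible because no label number is shared between groups. Each group held 6 mice, and each receptor gene had 257 or more recovered reads in every mouse. How far the spread between mice or the counting of reads limited what could be shown was not tested.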
